A study of Homo sapiens with 3 samples.

Results

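Endothelial cells of day 45 blood vessel organoids were studied when they carried RNA of NTS, APLNR, LYVE1 or MADCAM1 and lacked RNA of the tip cell genes ESM1 and APLN. Cells were barcodes with 1000 or more unique molecular identifiers (UMIs) and 500 or more genes, with no more than 20% of the UMIs from mitochondrial genes. A cell counted as endothelial with a UMI in at least 3 of PECAM1, CDH5, CLDN5, TIE1, KDR, CLEC14A and CD93. Gate-positive cells had 2 or more UMIs summed over NTS, APLNR, LYVE1 and MADCAM1 and no UMI of ESM1 or APLN. There were 247 gate-positive cells among 1159 endothelial cells and 23805 cells in all. The remaining endothelial cells were 569 tip-like cells, with a UMI of ESM1 or APLN, and 343 other endothelial cells, with neither and fewer than 2 gate UMIs.

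The human embryonic stem cell line H1, which is established, was the source of each organoid. In every group it had the NEUROD1-P2A-GFP cassette, switched on by doxycycline and placed with the PiggyBac transposon. The 3 groups received no doxycycline, doxycycline for 15 days or doxycycline for 45 days, at 1 µg/ml, and which 15 of the days these were is not in the labels. BDNF and NT-3 were in the medium of each group from day 15, and harvest was at day 45. Each group was 1 library from 5 to 6 pooled organoids, freed with papain at 20 U/ml for 30 min, filtered at 40 µm and captured on a Chromium Chip B with the 3′ v3 kit. The libraries held 8858, 5303 and 9644 cells of the uninduced, 15 day and 45 day libraries, with medians of 5305.5, 7368 and 5697 UMIs. NEUROD1, the induced transcription factor, stood at 1.33 counts per 1000000 UMIs (CPM) in the uninduced library, 1.41 CPM at 15 days and 42.7 CPM at 45 days, and no gate-positive cell of any library held a NEUROD1 UMI. The 15 day library therefore did not stand apart from the uninduced one in NEUROD1, and its results are given by its label. Between 10 and 27 cell barcodes were shared by each pair of libraries, and 1 gate-positive barcode, at 15 days, also occurred in another library.

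Veins, lymphatic vessels and arteries are lined by endothelial cells with different transcription factors. NR2F2 holds venous identity and restrains Notch signalling, PROX1 turns venous cells into lymphatic ones, and Notch signalling with SOX17 and the HEY repressors marks arteries. Among the gate genes, NTS encodes the peptide neurotensin, APLNR the receptor for apelin, LYVE1 a hyaluronan receptor of lymphatic and some sinusoidal endothelium and of some macrophages, and MADCAM1 the addressin that gut venules present to lymphocytes.

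Gate-positive cells took a smaller share of the endothelium in the induced libraries. They were 150 of 536 endothelial cells without induction, which is 28.0% (exact Clopper-Pearson 95% interval 24.2 to 32.0). At 15 days they were 74 of 376, or 19.7% (15.8 to 24.1), and at 45 days 23 of 247, or 9.31% (5.99 to 13.6). The 3 intervals did not overlap. They cover counting error only, and no test between groups could be made from 1 library each. As a share of every cell captured, gate-positive cells were 1.69% (1.44 to 1.98) in the uninduced library, 1.40% (1.10 to 1.75) in the 15 day library and 0.238% (0.151 to 0.358) in the 45 day library. Endothelial cells as a whole were 6.05% (5.56 to 6.57), 7.09% (6.41 to 7.81) and 2.56% (2.26 to 2.90) of cells in the same order of libraries. Fewer gate-positive cells and less gate RNA in each cell cannot be told apart by such a gate.

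The rule removes cells with ESM1 or APLN. Such tip-like cells were 180 of 536 endothelial cells without induction, 232 of 376 at 15 days and 157 of 247 at 45 days. Among the endothelial cells left, 150 were gate-positive and 206 were not in the uninduced library, against 74 and 70 at 15 days and 23 and 67 at 45 days. In cells without ESM1 or APLN the gate-positive part was thus larger at 15 days than without induction, and smallest at 45 days. With ESM1 and APLN not excluded the shares of the endothelium were 36.2% (32.1 to 40.4) in the uninduced library, 33.5% (28.8 to 38.5) in the 15 day library and 22.7% (17.6 to 28.4) in the 45 day library, and the intervals of the uninduced and 15 day libraries overlapped.

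Depth differed between the classes, and a gate of 2 UMIs is easier to pass in a deep cell. Median depth was 7898, 10558.5 and 9343 UMIs in gate-positive cells of the uninduced, 15 day and 45 day libraries. In tip-like cells it was 8540.5, 8735.5 and 7444 UMIs, and in other endothelial cells 6897, 6542.5 and 5101 UMIs. With each cell thinned to 3000 UMIs the gate-positive share of the endothelium was 22.9% (19.0 to 27.2) of 424 cells without induction, 18.2% (14.0 to 23.0) of 308 cells at 15 days and 8.51% (4.94 to 13.5) of 188 cells at 45 days. The 45 day share stayed lowest and the intervals of the other 2 libraries overlapped.

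**Figure D1:**
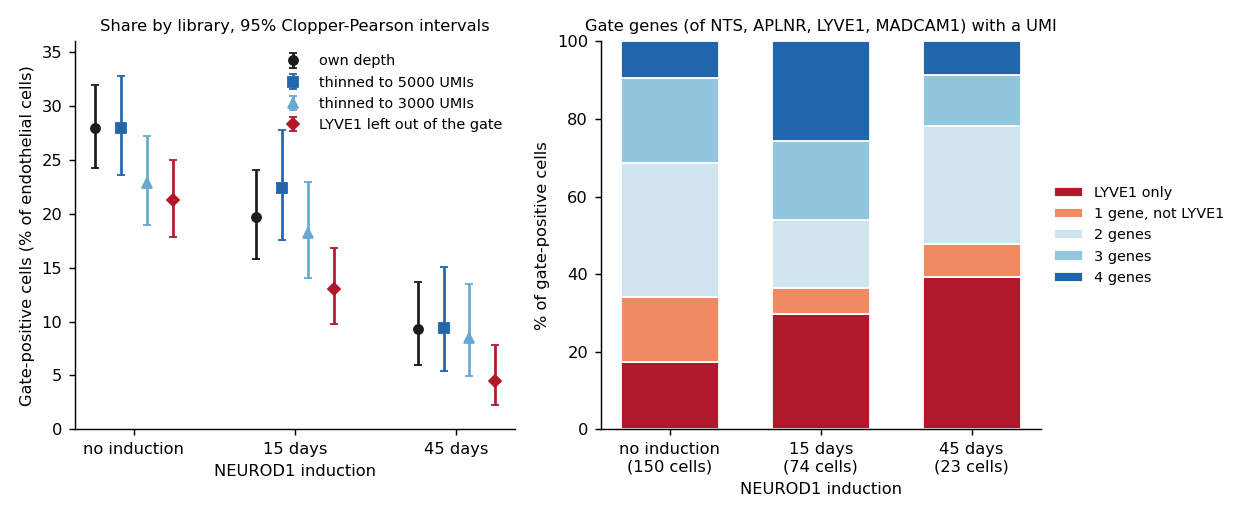
Left, gate-positive cells as a percentage of endothelial cells in each library (points, with 95% Clopper-Pearson intervals) at the depth of each cell, after thinning and with LYVE1 left out of the gate. Right, stacked bars give the percentage of the 150, 74 and 23 gate-positive cells by how many gate genes had a UMI. The share was lowest at 45 days under each of the 4 settings drawn, and the part with LYVE1 as its only gate gene was 17.3%, 29.7% and 39.1% of the cells from left to right.

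The gate also passed a few cells that were not endothelial. Among cells with none of the 7 endothelial genes, 31 of 6804 had 2 or more gate UMIs without induction (0.456%), 97 of 4147 at 15 days (2.34%) and 48 of 8488 at 45 days (0.566%), at median depths of 5120.5, 7218 and 5665 UMIs. Cells marked as macrophages outside the endothelium passed more often, in 12 of 110 (10.9%), 15 of 121 (12.4%) and 4 of 131 (3.05%) cells of the uninduced, 15 day and 45 day libraries, at medians of 4852, 7756 and 5851 UMIs. LYVE1 gave most of the gate UMIs in those macrophage-marked cells, with 46, 64 and 14 UMIs in the uninduced, 15 day and 45 day libraries.

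The values that follow for the 4 gate genes are those that chose the cells, and describe them without a test. NTS (chromosome 12, 85874295 to 85882992, GRCh38, plus strand) reached 855 CPM in uninduced organoids, 577 CPM at 15 days and 778 CPM at 45 days in gate-positive cells. In tip-like cells it was 204, 4.40 and 42.9 CPM, and in other endothelial cells 1.74, 2.14 and 4.91 CPM, again in the uninduced, 15 day and 45 day libraries. Few cells carried most of it: 8 of 23 gate-positive cells had an NTS UMI at 45 days, and 94 of their 186 UMIs came from 1 cell.

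APLNR (chromosome 11, 57233577 to 57237314, minus strand) was at 408 CPM in uninduced organoids, 484 CPM at 15 days and 105 CPM at 45 days. It was the most widely shared gate gene without induction, with a UMI in 105 of 150 gate-positive cells, against 48 of 74 at 15 days and 10 of 23 at 45 days. LYVE1 (chromosome 11, 10556966 to 10611689, minus strand) was at 297, 490 and 201 CPM, with a UMI in 83, 54 and 16 cells of the uninduced, 15 day and 45 day libraries. MADCAM1 (chromosome 19, 489176 to 505342, plus strand) was at 93.4, 308 and 50.2 CPM in the same libraries, with a UMI in 39 of 150, 39 of 74 and 8 of 23 cells. MADCAM1 was thus the gate gene held by the fewest cells without induction, and in no library was it the only gate gene of a cell.

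Summed over the 3 libraries, the cells just inside and just outside the threshold were close in NR2F2 and GJA4. Endothelial cells with exactly 1 gate UMI numbered 72 and those with exactly 2 numbered 39 over the 3 libraries. NR2F2, which the gate did not use, was at 120 CPM (Poisson 95% interval 84.9 to 165) in the cells with exactly 2 gate UMIs and 106 CPM (82.8 to 133) in those with exactly 1. The gap junction gene GJA4 was at 663 CPM (576 to 759) with 2 gate UMIs and 582 CPM (526 to 642) with 1. The libraries did not go 1 way: NR2F2 was at 202, 9.25 and 74.7 CPM with 2 gate UMIs in the uninduced, 15 day and 45 day libraries, against 116, 77.1 and 102 CPM with 1. At 15 and 45 days the values with 2 rest on 1 and 3 UMIs. Summed again, IL33 was at 12.6 CPM (3.44 to 32.3) with 2 gate UMIs and 106 CPM (82.8 to 133) with 1. COTL1 was at 205 CPM (158 to 262) with 2 gate UMIs and 116 CPM (91.9 to 145) with 1. A different level appeared among the 141 cells with 6 or more gate UMIs, where NR2F2 was at 729 CPM (687 to 773) and GJA4 at 95.1 CPM (80.3 to 112). The 106 gate-positive cells with 2 to 5 gate UMIs had NR2F2 at 194 CPM (167 to 225) and GJA4 at 601 CPM (552 to 654). Within that range NR2F2 was at 233 CPM (196 to 275) and GJA4 at 569 CPM (510 to 632) in the 67 cells with 3 to 5 gate UMIs. The gate thus took in cells with unlike levels of these genes, and the averages over gate-positive cells below mix them. Whether the cells form separate groups or a gradient was not tested.

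**Figure D2:**
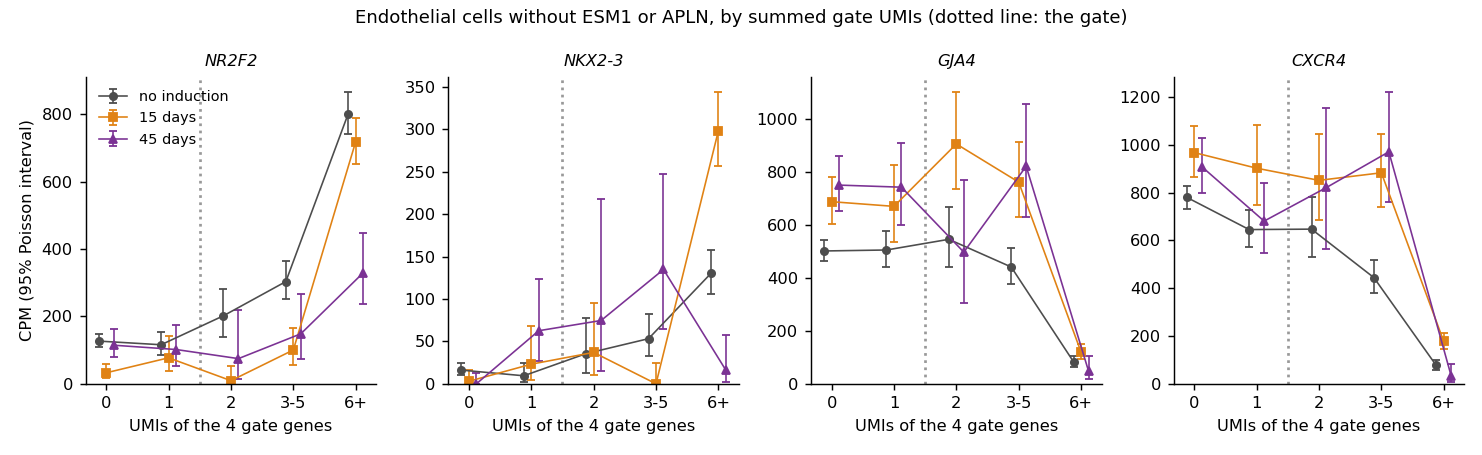
NR2F2, NKX2-3, GJA4 and CXCR4 (CPM, with 95% Poisson intervals) in endothelial cells without ESM1 or APLN, grouped by summed UMIs of the 4 gate genes, for each library. Cells right of the dotted line are gate-positive. NR2F2 was highest and GJA4 and CXCR4 lowest at 6 or more gate UMIs in each of the 3 libraries, whereas NKX2-3 was highest there without induction and at 15 days but not at 45 days.

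The venous label was compared with IL33 and NR2F2, the label's 2 genes outside the gate, and they went opposite ways. Both genes came with the label, which was chosen with earlier results of these data known. Their tests are therefore no independent check of it. NR2F2 (chromosome 15, 96325938 to 96340263, plus strand) encodes the nuclear receptor COUP-TFII. It was at 584 CPM in uninduced organoids, 527 CPM at 15 days and 230 CPM at 45 days in gate-positive cells, against 124, 45.0 and 110 CPM in other endothelial cells and 75.3, 62.9 and 70.7 CPM in tip-like cells. Each gate-positive library lay above each library of both other classes. The log2 fold change was 2.28 ± 0.23 (SE) over other endothelial cells (adjusted p = 2.14e-06) and 2.80 ± 0.21 over tip-like cells (adjusted p = 1.68e-08). These tests used edgeR's quasi-likelihood fit on UMIs summed per library and class, with the 3 libraries as replicates and library as a block. IL33 (chromosome 9, 6215786 to 6257983, plus strand), a nuclear alarmin of venules, was at 40.7, 28.3 and 4.19 CPM in gate-positive cells of the uninduced, 15 day and 45 day libraries, against 150, 60.0 and 51.5 CPM in other endothelial cells and 113, 33.8 and 20.7 CPM in tip-like cells. It was lower in gate-positive cells in 3 of 3 libraries against both classes, although the ranges overlapped those of tip-like cells, by a log2 fold change of -1.74 ± 0.25 against other endothelial cells (adjusted p = 0.000117) and less against tip-like cells (adjusted p = 0.00747). The call against tip-like cells was lost without the uninduced library (log2 fold change -0.41, adjusted p = 0.608) and with cells carrying 3 or more markers of another class left out (-0.36, adjusted p = 0.593). It was also lost with DESeq2 (adjusted p = 0.122), without the library block (adjusted p = 0.517) and after thinning to 3000 UMIs (adjusted p = 0.0817). The call against other endothelial cells was lost only without the library block among the alternatives run (-1.69, adjusted p = 0.255). IL33 therefore goes against the label, and the cells are called gate-positive here.

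**Figure D3:**
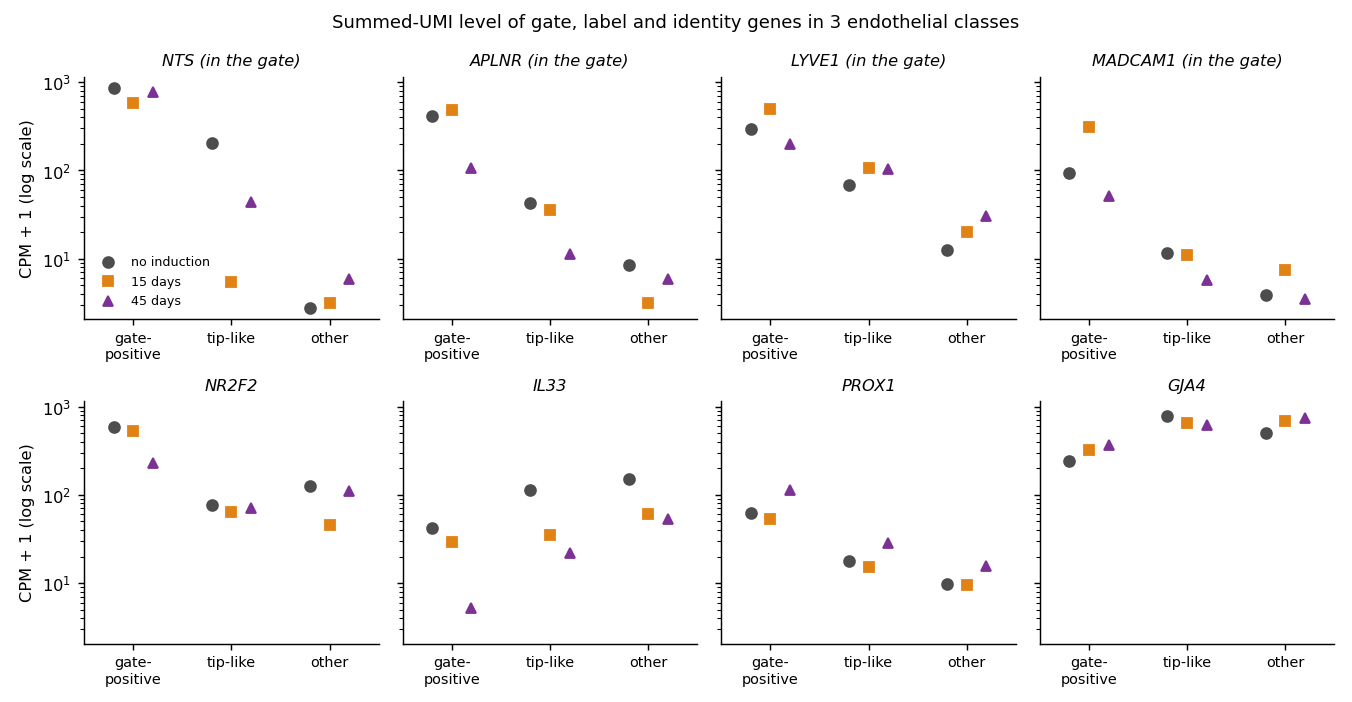
Level of 8 genes as CPM + 1 on a log axis in gate-positive, tip-like and other endothelial cells, 1 point per library (circles no induction, squares 15 days, triangles 45 days). The top row holds the 4 gate genes, which chose the cells. In the bottom row NR2F2 and PROX1 were higher and IL33 and GJA4 lower in gate-positive cells than in either other class, in each library.

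Over all genes, 474 of 10508 genes tested, or 4.51%, differed between gate-positive and other endothelial cells at an adjusted p under 0.05, 187 of them higher (1.78%) and 287 lower (2.73%). Against tip-like cells 1294 genes, or 12.3%, differed, 679 higher (6.46%) and 615 lower (5.85%). These shares over all genes are the base for the gene lists below, and the 13 genes of the rule are not counted. The counts fell to 298 and 713 without the uninduced library and to 312 and 761 without the 15 day library, and were 459 and 1121 without the 45 day library, each given against other endothelial cells and then against tip-like cells. The classes were drawn on UMIs of the same cells, so the tests show which other genes moved with the gate. The spread behind them comes from 3 libraries that also differ in induction, and nothing in the labels places them in separate batches of culture.

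Beyond NR2F2 the venous list gave a mixed picture. Of its 13 genes 8 were measured well enough to test, and ACKR1, SELP, SELE, VCAM1 and TLL1 were not. Against other endothelial cells 3 of the 8 were higher (beside 1.78% of all genes) and 1, IL33, was lower (beside 2.73%). Against tip-like cells 5 were higher (beside 6.46%) and IL33 again lower (beside 5.85%). The median log2 fold change of the 8 was 0.52 and 0.77, beside 0.00 and 0.02 over all genes tested. NRP2, a co-receptor for VEGF-C and semaphorins, was at 441, 349 and 490 CPM in gate-positive cells of the uninduced, 15 day and 45 day libraries, against 127, 122 and 160 CPM in other endothelial cells and 135, 200 and 242 CPM in tip-like cells, and the groups did not overlap. NRP2 was 3.10-fold higher than in other endothelial cells (adjusted p = 1.16e-06) and 2.36-fold higher than in tip-like cells (adjusted p = 3.64e-06). PLVAP, a diaphragm protein of fenestrated and venous endothelium, rose against other endothelial cells (log2 fold change 0.67 ± 0.15, adjusted p = 0.0122) and not against tip-like cells (-0.08 ± 0.14, adjusted p = 0.796). The first PLVAP call was lost after thinning to 3000 UMIs (log2 fold change 0.16, adjusted p = 0.737), without the 15 day library (adjusted p = 0.121) and without the library block (adjusted p = 0.122). EPHB4, the ephrin-B2 receptor of veins, TEK, the angiopoietin receptor, and NR2F1, a relative of NR2F2, were higher than in tip-like cells, with log2 fold changes of 0.64, 0.90 and 1.51, and did not pass the test against other endothelial cells. Without the 15 day library EPHB4 (adjusted p = 0.106) and TEK (adjusted p = 0.402) did not pass against tip-like cells, and without the uninduced library EPHB4 (adjusted p = 0.0537) and NR2F1 (adjusted p = 0.250) did not. EMCN, a sialomucin of veins and capillaries, passed neither test.

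Of the 16 lymphatic genes 13 were tested, with 4 higher and 1 lower against other endothelial cells (beside 1.78% and 2.73% of all genes). Against tip-like cells 5 were higher and 1 lower (beside 6.46% and 5.85%). The median log2 fold change was 0.47 and 0.79. PROX1 (chromosome 1, 213983181 to 214041502, plus strand) was at 61.0, 52.0 and 113 CPM in gate-positive cells of the uninduced, 15 day and 45 day libraries, against 8.69, 8.57 and 14.7 CPM in other endothelial cells and 17.0, 14.1 and 27.8 CPM in tip-like cells. The groups did not overlap, and PROX1 was 6.87-fold higher than in other endothelial cells (adjusted p = 6.67e-07) and 3.90-fold higher than in tip-like cells (adjusted p = 5.82e-07). With cells thinned to 3000 UMIs before the gate PROX1 no longer passed the test against tip-like cells (log2 fold change 1.23, adjusted p = 0.0610). STAB2, a hyaluronan scavenger receptor of sinusoidal and lymphatic endothelium, had 92 UMIs in gate-positive cells, against 1 UMI in other endothelial cells and 1 UMI in tip-like cells. That is 97.6-fold (counting interval 17.1 to 3896) over other endothelial cells and 199-fold (34.8 to 7942) over tip-like cells. These intervals pool cells and libraries, and STAB2 passed the filter on low counts only through gate-positive cells. Its UMIs were 50 in 13 of 150 cells without induction, 20 of them in 1 cell, 40 in 15 of 74 cells at 15 days and 2 at 45 days. CCL21, the chemokine that lymphatic vessels present to dendritic cells and lymphocytes, had 71 UMIs in gate-positive cells, against 17 in other endothelial cells (4.43-fold, 2.58 to 8.02) and 1 in tip-like cells (154-fold, 26.7 to 6148). These CCL21 folds rest on the uninduced library, which held 61 of the 71 UMIs, 43 of them in 1 cell, and the call against other endothelial cells was lost without the library block (adjusted p = 0.259). CCL21 was at 45.9, 5.65 and 20.9 CPM in gate-positive cells, against 9.85, 0 and 0 CPM in other endothelial cells of the uninduced, 15 day and 45 day libraries.

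The lymphatic programme was incomplete in these averages. FLT4, the VEGF-C receptor, was at 83.6, 61.1 and 138 CPM in the uninduced, 15 day and 45 day libraries in gate-positive cells, against 73.6, 83.6 and 63.8 CPM in other endothelial cells, and the groups overlapped (adjusted p = 0.873). PDPN, the mucin podoplanin of lymphatic vessels, was at 12.0, 0 and 29.3 CPM and passed neither test. The extracellular matrix protein MMRN1 fell against both classes, by 0.51 on the log2 scale against other endothelial cells (adjusted p = 0.0319) and by 0.50 against tip-like cells (adjusted p = 0.0101). Neither MMRN1 call was firm: 6 alternatives lost it against other endothelial cells (adjusted p between 0.0505 and 0.576) and 5 against tip-like cells (between 0.0520 and 0.585). FOXC2, GATA2, STAB1, ITGA9 and SEMA3D passed neither test, and RELN, TFF3 and TBX1 were too low to test. MRC1 was higher than in tip-like cells (adjusted p = 0.0493), a call lost under 4 alternatives.

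The arterial list moved the other way. None of its 17 genes was higher. Of the 17, 12 were lower than in other endothelial cells (beside 2.73% of all genes) and 14 lower than in tip-like cells (beside 5.85%), with median log2 fold changes of -0.91 and -1.39. CXCR4, the chemokine receptor of arterial and tip cells, was at 253, 379 and 456 CPM in gate-positive cells of the uninduced, 15 day and 45 day libraries, against 747, 949 and 837 CPM in other endothelial cells and 1302, 1556 and 1603 CPM in tip-like cells. The groups did not overlap, and the log2 fold change was -1.31 ± 0.11 against other endothelial cells (adjusted p = 2.07e-07) and -2.04 ± 0.11 against tip-like cells (adjusted p = 9.86e-11). GJA4, an arterial gap junction protein (chromosome 1, 34792998 to 34795747, plus strand), was at 243, 325 and 364 CPM in gate-positive cells, against 503, 683 and 749 CPM in other endothelial cells and 790, 647 and 622 CPM in tip-like cells, without overlap between gate-positive cells and either class. GJA4 was lower by log2 fold changes of -1.09 and -1.14.

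Notch genes on the arterial list were mostly lower. The ligand gene DLL4 was at 58.0, 81.4 and 113 CPM in gate-positive cells of the uninduced, 15 day and 45 day libraries, against 110, 141 and 142 CPM in other endothelial cells and 218, 269 and 245 CPM in tip-like cells. The receptor genes NOTCH1 and NOTCH4 fell against other endothelial cells by 0.65 and 0.91 on the log2 scale, and against tip-like cells by 0.95 and 1.39. The Notch targets HEY1 and HEY2, transcriptional repressors, had log2 fold changes of -1.33 ± 0.22 and -2.06 ± 0.31 against other endothelial cells and -2.29 ± 0.19 and -2.31 ± 0.28 against tip-like cells. HEY2 was the list gene with the largest difference in both comparisons, at 6.78, 14.7 and 8.37 CPM in gate-positive cells, against 46.4, 32.1 and 31.9 CPM in other endothelial cells and 53.8, 51.4 and 41.3 CPM in tip-like cells, in the uninduced, 15 day and 45 day libraries. Without the uninduced library HEY2 (adjusted p = 0.0946), DLL4 (adjusted p = 0.148) and NOTCH1 (adjusted p = 0.288) did not pass against other endothelial cells. Against other endothelial cells the NOTCH1 call was also lost under 5 further alternatives (adjusted p between 0.0560 and 0.502) and the SOX17 call under 7 (adjusted p between 0.0873 and 0.494). Of the other Notch ligands tested, JAG2 fell against tip-like cells by 0.82 on the log2 scale, a call lost under 2 alternatives, and JAG1 passed neither test. EFNB2, SOX17, UNC5B, NRP1 and GJA5 were lower against both classes, SEMA3G was lower than in tip-like cells, and BMX and FBLN5 passed neither test.

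Promoters of the arterial genes that were lower than in tip-like cells were read for GTGGGAA, a letter string bound by the Notch partner RBPJ, on both strands of the 250 bases before the start (RefSeq, build GRCh38.p14). The table held 9 of the 14 genes (CXCR4, DLL4, EFNB2, GJA5, HEY2, JAG2, NOTCH1, NOTCH4 and SEMA3G), and 2 of them, HEY2 and CXCR4, had the string at 1 or more of their starts. Among all 35116 promoters given there, counted start by start, 5.43% held it. A gene instead counted with a match at any of its starts, so that share is no like-for-like base for the genes with the string. The 2 that held it are shown, with the string, or its complement TTCCCAC, in capitals.
HEY2, chr6:125749382-125749631, plus strand: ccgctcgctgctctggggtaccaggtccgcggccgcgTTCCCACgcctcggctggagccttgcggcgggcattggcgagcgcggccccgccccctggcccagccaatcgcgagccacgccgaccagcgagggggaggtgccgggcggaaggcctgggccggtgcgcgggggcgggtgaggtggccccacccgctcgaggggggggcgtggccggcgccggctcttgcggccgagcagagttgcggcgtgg
CXCR4, chr2:136116236-136116485, minus strand: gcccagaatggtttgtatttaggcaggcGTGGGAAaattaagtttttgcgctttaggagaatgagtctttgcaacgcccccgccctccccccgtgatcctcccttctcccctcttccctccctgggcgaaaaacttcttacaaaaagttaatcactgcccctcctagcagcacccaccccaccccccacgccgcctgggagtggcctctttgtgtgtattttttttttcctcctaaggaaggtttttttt
These matches describe the letters of the windows and are not evidence of binding. Both windows lie within the GENCODE 29 span of their gene, so they do not precede its outermost start.

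**Figure D4:**
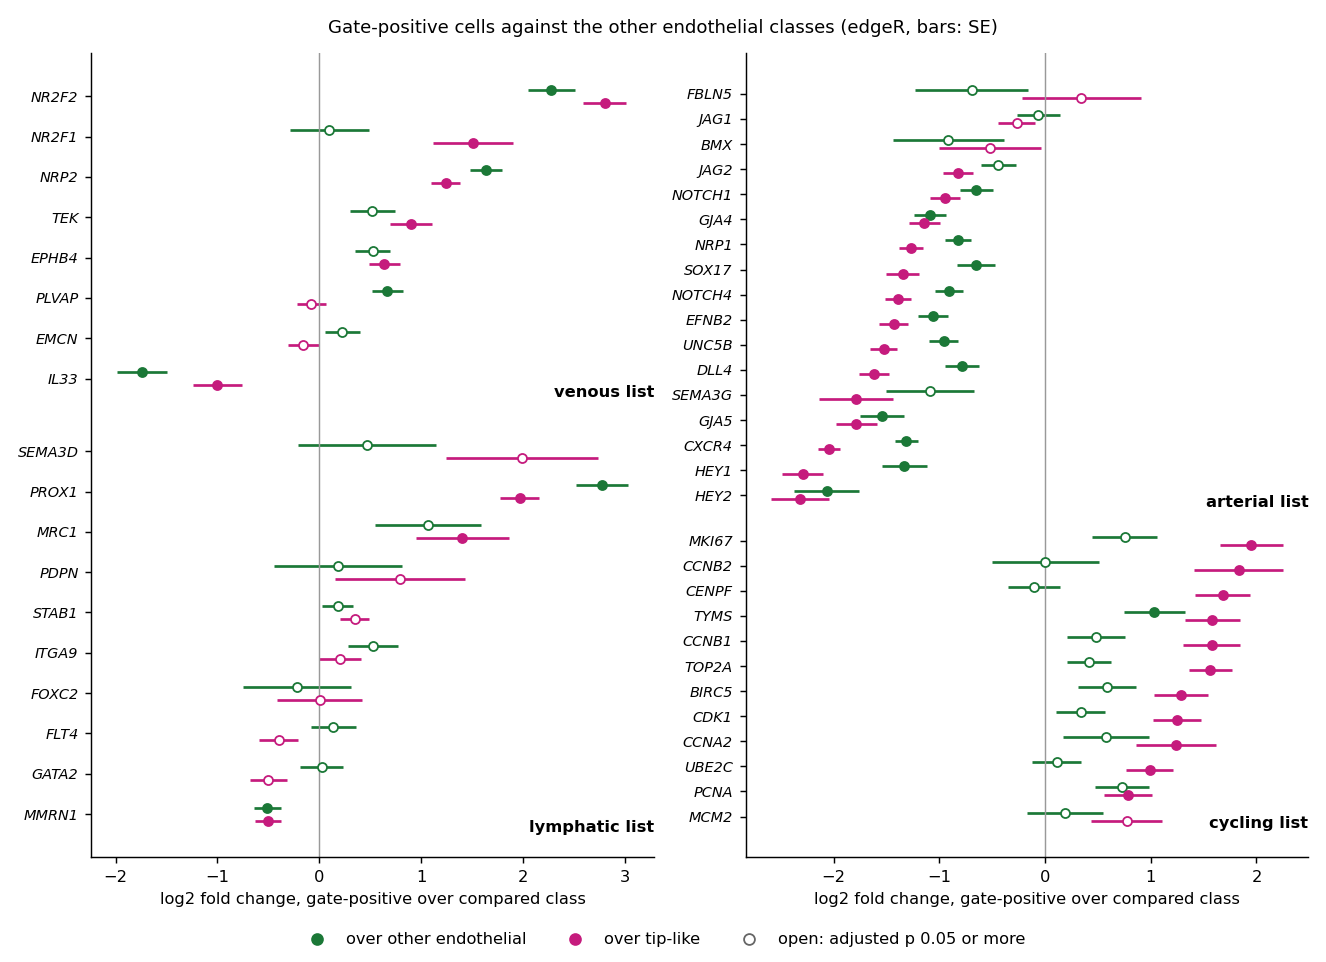
Log2 fold change (points, bars SE) of gate-positive cells over other endothelial cells (green) and over tip-like cells (pink) for the tested genes of the venous, lymphatic, arterial and cycling lists. Filled points have an adjusted p under 0.05. NRP2 is drawn under venous alone, and STAB2 and CCL21 are left out because the compared classes held between 1 and 17 of their UMIs. No arterial gene has a filled point right of 0, and 11 of 12 cycling genes have one right of 0 against tip-like cells.

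Called genes, lists included, were ranked at 50 CPM or more in 1 of the 2 classes and with the same direction in 3 of 3 libraries. STAB2 and CCL21 fell below 50 CPM and were not ranked. Ranked genes that led in gate-positive cells over other endothelial cells were RBP5, MMP1, PTX3, NKX2-3, LPL, PROX1, GDF15, PLA2G4C, COTL1, NR2F2, SMAGP, NEURL1B, F2RL3, IGFBP7 and CD320. RBP5, a retinol-binding protein, was at 51.9, 122 and 33.5 CPM in gate-positive cells of the uninduced, 15 day and 45 day libraries, against 5.21, 4.28 and 4.91 CPM in other endothelial cells (log2 fold change 3.62 ± 0.32, adjusted p = 5.54e-07). NKX2-3 (chromosome 10, 99532933 to 99536524, plus strand), a homeobox factor that in mice is needed for MAdCAM-1 in gut and spleen vessels, was at 96.4, 216 and 62.8 CPM, against 14.5, 8.57 and 19.6 CPM in other endothelial cells and 13.0, 28.6 and 13.5 CPM in tip-like cells. The groups did not overlap, with log2 fold changes of 2.99 ± 0.27 (adjusted p = 6.67e-07) and 2.85 ± 0.22 (adjusted p = 2.32e-08). COTL1 (chromosome 16, 84565594 to 84618077, minus strand), an actin-binding protein, was at 565, 597 and 280 CPM in gate-positive cells, against 100, 107 and 93.3 CPM in other endothelial cells and 114, 109 and 67.5 CPM in tip-like cells. The COTL1 groups did not overlap, with log2 fold changes of 2.30 ± 0.15 (adjusted p = 6.08e-09) and 2.38 ± 0.13 (adjusted p = 2.07e-10).

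The capillary and lipid list was mixed, with LPL and CD36 higher. LPL, the lipase that frees fatty acids from lipoproteins, was at 49.7, 47.5 and 87.9 CPM in gate-positive cells of the uninduced, 15 day and 45 day libraries, against 8.11, 2.14 and 9.82 CPM in other endothelial cells and 16.4, 10.1 and 22.2 CPM in tip-like cells, without overlap. CD36, a fatty acid and thrombospondin receptor, was at 80.6, 226 and 163 CPM, against 19.7, 87.8 and 88.4 CPM in other endothelial cells and 14.7, 51.4 and 33.4 CPM in tip-like cells. The CD36 ranges overlapped with other endothelial cells, while each library had the higher value in gate-positive cells. Both genes rose against both classes, and they were the 2 higher of the 9 genes in each comparison. BTNL9 was lower than in other endothelial cells, and BTNL9 and RGCC were lower than in tip-like cells, with list medians of -0.33 and 0.06 on the log2 scale. BTNL9 was at 28.6, 53.2 and 29.3 CPM, against 88.1, 171 and 140 CPM in other endothelial cells (log2 fold change -1.75 ± 0.18, adjusted p = 2.14e-06).

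Shear-response and immediate early genes were higher too, with 4 of 11 higher than in other endothelial cells (beside 1.78% of all genes) and 8 of 11 higher than in tip-like cells (beside 6.46%), none lower, and median log2 fold changes of 0.50 and 1.07. KLF2, a factor induced by flow, was at 446, 569 and 138 CPM in gate-positive cells of the uninduced, 15 day and 45 day libraries, against 181, 135 and 90.8 CPM in other endothelial cells and 163, 88.8 and 68.3 CPM in tip-like cells. The ranges overlapped, but each library had the highest value in gate-positive cells. KLF2 rose 2.83-fold over other endothelial cells (adjusted p = 9.02e-05) and 3.85-fold over tip-like cells (adjusted p = 6.02e-07). Without the library block KLF2 did not pass against other endothelial cells (adjusted p = 0.0934), and the NOS3 call there was lost under 6 alternatives. The JUN and IER2 calls were kept. Against tip-like cells ATF3 and JUNB were each lost under 4 alternatives, KLF4 under 2 and FOSB under 1. JUN rose against both classes, whereas FOS rose against tip-like cells (log2 fold change 1.42, adjusted p = 4.87e-06) and stood at 0.03 against other endothelial cells (adjusted p = 0.981). The heat shock genes HSPA1A and HSPA1B and the phosphatase gene DUSP1 were among the 15 ranked genes that rose most over tip-like cells. Such genes are known to respond to cell dissociation, whose part in the result was not tested.

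Ranked by the same rule, the genes that rose most over tip-like cells were PTX3, CXCL2, FLRT2, NKX2-3, NR2F2, RBP5, COTL1, ITPR2, CD36, DUSP1, HSPA1A, CCL2, GGT5, HSPA1B and PROX1. PTX3, a secreted pentraxin that also stands on the mesenchymal list, was at 114, 63.3 and 163 CPM in gate-positive cells of the uninduced, 15 day and 45 day libraries, against 11.9, 6.15 and 5.56 CPM in tip-like cells (log2 fold change 3.70 ± 0.26, adjusted p = 7.27e-09). FLRT2, an adhesion protein, was at 98.6, 85.9 and 29.3 CPM, against 13.0, 5.71 and 4.77 CPM in tip-like cells (3.31 ± 0.24, adjusted p = 8.10e-09). CXCL2 and GDF15 led their rankings through few cells: at 15 days 57 of 159 CXCL2 UMIs and 106 of 158 GDF15 UMIs came from 1 cell each. The most reduced of the ranked genes were SLC45A4, IGFBP3, TSPAN2, DEPTOR, MMP9, HEY1, ACE, the carboxypeptidase M gene, SLC1A4 and GRB10. IGFBP3, a binding protein for insulin-like growth factors, was at 188, 250 and 226 CPM in gate-positive cells, against 894, 1848 and 1488 CPM in tip-like cells (log2 fold change -2.58 ± 0.14, adjusted p = 1.67e-10).

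Angiogenic genes beyond the 2 that defined tip-like cells were lower. Of 16 tip and sprouting genes tested, 13 were lower than in tip-like cells (beside 5.85% of all genes) and 6 lower than in other endothelial cells (beside 2.73%), with none higher and median log2 fold changes of -0.98 and -0.56. The 6 were CXCR4, DLL4, UNC5B, INHBB, LXN and MCAM, and CXCR4, DLL4 and UNC5B also stand on the arterial list. Against other endothelial cells the INHBB call was lost under 4 alternatives, DLL4 under 3 and UNC5B, LXN and MCAM under 1 each, while CXCR4 was kept. ANGPT2, the angiopoietin that destabilises vessels, was at 36.9, 35.1 and 105 CPM in gate-positive cells of the uninduced, 15 day and 45 day libraries, against 145, 170 and 214 CPM in tip-like cells (adjusted p = 1.66e-06). FLT1, a VEGF receptor that also acts as a decoy, was at 390, 283 and 490 CPM, against 1343, 1400 and 1716 CPM in tip-like cells and 711, 596 and 810 CPM in other endothelial cells. FLT1 was lower against both classes, by log2 fold changes of -1.91 and -0.92. Of the 16 tested receptors for angiogenic ligands 3 were higher and 5 lower than in tip-like cells, and RAMP2, a partner of the adrenomedullin receptor, was the receptor component besides NRP2 that rose against both classes, at 955, 908 and 665 CPM, against 558, 565 and 432 CPM in tip-like cells.

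Junction and matrix genes followed the same direction. Of 13 junction genes 5 were lower than in other endothelial cells (beside 2.73% of all genes) and 7 lower than in tip-like cells (beside 5.85%), none higher. GJA4 and GJA5, among them, also stand on the arterial list. Against other endothelial cells the ESAM call was lost under 8 alternatives, CTNNB1 under 4 and GJA5 under 1, while GJA1 and GJA4 were kept. Against tip-like cells the F11R call was lost under 6 alternatives, JAM3 under 5 and CTNNB1 under 1. The gap junction gene GJA1 was at 294, 260 and 352 CPM in gate-positive cells of the uninduced, 15 day and 45 day libraries, against 624, 471 and 493 CPM in other endothelial cells and 953, 1134 and 963 CPM in tip-like cells (adjusted p = 0.000179 and 8.74e-09). Of 13 basement membrane genes 3 were lower than in other endothelial cells (COL4A1, LAMA5 and SPARC) and 8 lower than in tip-like cells, beside the same 2.73% and 5.85% of all genes. Against other endothelial cells the COL4A1 call was lost under 5 alternatives, LAMA5 under 3 and SPARC under 1. Against tip-like cells NID1 was lost under 6, COL4A2 under 4 and HSPG2 under 2, while COL18A1 was kept. Among 7 leukocyte adhesion genes tested, ICAM1, ICAM2 and CCL2 were higher and CD34 and PODXL lower than in tip-like cells, while against other endothelial cells PODXL was lower and none was higher. The PODXL call was lost under 7 alternatives against other endothelial cells and under 2 against tip-like cells. With DESeq2 ICAM1 (adjusted p = 0.0510), ICAM2 (adjusted p = 0.0586) and CCL2 (adjusted p = 0.0823) did not pass, nor did ICAM1 (adjusted p = 0.118) and ICAM2 (adjusted p = 0.331) without the 15 day library. CCL2, which attracts monocytes, was at 160, 407 and 318 CPM in gate-positive cells, against 148, 34.7 and 29.4 CPM in tip-like cells (adjusted p = 0.00199). Of 13 guidance genes 2 were higher than in tip-like cells (SEMA3A and EFNB1, beside 6.46% of all genes) and 3 lower (PLXND1, PLXNA2 and EFNA1, beside 5.85%), while SLIT3 was the 1 lower than in other endothelial cells (beside 2.73%). The SEMA3A, EFNB1 and PLXNA2 calls were each lost under 3 alternatives, SLIT3 under 2 and PLXND1 under 1, while EFNA1 was kept.

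Cell cycle genes separated gate-positive from tip-like cells, with 11 of 12 higher (beside 6.46% of all genes) and a median log2 fold change of 1.43. Against other endothelial cells 1 of 12, TYMS, was higher (adjusted p = 0.0411), beside 1.78% of all genes. TOP2A, a topoisomerase of dividing cells, was at 95.6, 152 and 218 CPM in gate-positive cells of the uninduced, 15 day and 45 day libraries, against 34.5, 69.9 and 41.3 CPM in tip-like cells (adjusted p = 1.65e-05). Cells with UMIs in at least 3 of the 12 genes made up 13.3% (8.34 to 19.8), 31.1% (20.8 to 42.9) and 21.7% (7.46 to 43.7) of gate-positive cells, against 5.00% (2.31 to 9.28), 13.4% (9.26 to 18.4) and 14.0% (8.99 to 20.4) of tip-like cells in the same libraries. Thinned to 3000 UMIs the shares were 7.09%, 17.8% and 20.0% of 141, 73 and 20 gate-positive cells, against 1.83%, 7.14% and 5.22% of 164, 210 and 134 tip-like cells. The gate-positive share was the higher one in each library at either depth. At the depth of each cell the intervals were apart at 15 days and overlapped in the other 2 libraries. Thinned, the intervals overlapped in every library, at 15 days with 9.84 to 28.5% of gate-positive and 4.05 to 11.5% of tip-like cells.

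Macrophage genes were lower in gate-positive than in other endothelial cells. C1QC, a complement gene of macrophages, had 4.52, 2.26 and 0 CPM in gate-positive cells of the uninduced, 15 day and 45 day libraries, against 31.9, 180 and 226 CPM in other endothelial cells, and was the ranked gene with the largest drop in that comparison (log2 fold change -4.95 ± 0.44, adjusted p = 5.73e-07). Of the 8 macrophage and haematopoietic genes tested 6 were lower than in other endothelial cells, and 2 were higher than in tip-like cells. Cells with 3 or more such genes were few, at 2 of 150, 0 of 74 and 0 of 23 gate-positive cells, against 1 of 206, 4 of 70 and 1 of 67 other endothelial cells of the uninduced, 15 day and 45 day libraries. The summed level of the 12 listed genes was 95.6, 54.3 and 75.3 CPM in gate-positive cells, against 182, 975 and 1102 CPM in other endothelial cells and 31.7, 32.1 and 18.3 CPM in tip-like cells, and in gate-positive cells at 45 days 7 of the 12 were at 0. The part of macrophage RNA in the comparison with other endothelial cells was not tested beyond leaving out cells with 3 or more markers of another class, after which 187 genes were called.

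RNA of other organoid cells was present in all 3 classes. The 12 mesenchymal genes summed to 2516, 675 and 636 CPM in gate-positive cells of the uninduced, 15 day and 45 day libraries, against 2485, 581 and 798 CPM in tip-like cells and 5204, 1048 and 1207 CPM in other endothelial cells, with none of the 12 at 0. Of these 12 genes 6 were lower and PTX3 higher than in other endothelial cells. Hepatocyte genes summed to 57.2, 357 and 0 CPM in gate-positive cells and neuron genes to 77.5, 520 and 213 CPM. At 15 days 16 of 74 gate-positive cells held 3 or more hepatocyte genes and 13 held 3 or more neuron genes. Against tip-like cells 3 of 6 hepatocyte genes and 4 of 8 neuron genes were higher, and the part of RNA from neighbouring cells in these calls was not tested.

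Which gate genes a cell held went with a different profile. These splits of the gate-positive cells were chosen after their values were seen and carry no test. LYVE1 was the only gate gene in 57 of 247 cells, which is 26 of 150 without induction (17.3%, 11.6 to 24.4), 22 of 74 at 15 days (29.7%, 19.7 to 41.5) and 9 of 23 at 45 days (39.1%, 19.7 to 61.5). In these 57 cells NR2F2 was at 107 CPM and in the other 190 gate-positive cells at 652 CPM. GJA4 was at 899 CPM in the 57 cells and 105 CPM in the other 190, and CXCR4 at 1007 CPM in the 57 cells and 117 CPM in the other 190. In other endothelial cells GJA4 was at 574 and CXCR4 at 797 CPM, below the 57 cells. The Notch targets were not above that class: HEY1 was at 103 CPM (78.1 to 134) and HEY2 at 23.5 CPM (12.5 to 40.2) in the 57 cells, against 149 CPM (135 to 165) and 41.5 CPM (34.1 to 50.1) in other endothelial cells. The low NR2F2 and high GJA4 of the 57 cells go against the venous label.

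The difference held within each library. NR2F2 was at 205, 18.2 and 14.1 CPM in cells with LYVE1 as the only gate gene in the uninduced, 15 day and 45 day libraries, against 678, 695 and 321 CPM in the other gate-positive cells. Depth did not separate them in 1 direction, with medians of 8913.5, 7750.5 and 8055 UMIs, against 7726.5, 11460 and 10715 UMIs. With these 57 cells left out, a choice made after the data were seen, 732 genes differed from other endothelial cells and 1577 from tip-like cells, and 449 of the 474 and 1207 of the 1294 genes called with them remained called.

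Cells with several gate genes stood at the other end. The 86 cells with 3 or 4 gate genes had NR2F2 at 933 CPM, KLF2 at 857 CPM, NKX2-3 at 261 CPM, GJA4 at 25.7 CPM and GJA5 at 1.12 CPM. NKX2-3 was higher in cells with MADCAM1 and in cells with APLNR. It was at 225, 305 and 140 CPM in cells with a MADCAM1 UMI in the uninduced, 15 day and 45 day libraries, against 54.8, 88.3 and 19.6 CPM in gate-positive cells without one. With an APLNR UMI it was at 126, 304 and 184 CPM, against 33.0, 21.8 and 0 CPM without one. STAB2 was at 55.3 and 65.7 CPM with an APLNR UMI without induction and at 15 days, against 0 CPM without one in both libraries. By LYVE1 it was at 60.7 and 59.4 CPM with a LYVE1 UMI without induction and at 15 days, against 7.01 and 11.5 CPM without one, while at 45 days 2 STAB2 UMIs were counted in all. Since the cells were chosen on UMIs of these gate genes, these are descriptions of how genes are shared among them.

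Lymphatic genes did not share 1 set of cells. The 24 gate-positive cells with NTS but without APLNR had PROX1 at 213.5 CPM, CCL21 at 221 CPM, PDPN at 67.4 CPM and NRP2 at 689 CPM, and NKX2-3 at 18.7 CPM. In the 163 cells with an APLNR UMI PROX1 was at 57.7 CPM, CCL21 at 7.53 CPM, PDPN at 1.26 CPM and NKX2-3 at 197 CPM. Of the 154 PROX1 UMIs 57 were in the 24 cells and 92 in the 163 cells, and of the 92 STAB2 UMIs 1 was in the 24 cells and 91 in the 163 cells. The 24 cells were 18 without induction, 2 at 15 days and 4 at 45 days, and the 2 cells at 15 days held no UMI of PROX1, CCL21 or PDPN. A single uninduced cell held 43 of the 61 CCL21 UMIs of that library, so the CCL21 level rests mainly on 1 cell. PROX1 was spread more widely, over 26 of 150 gate-positive cells without induction, 11 of 74 at 15 days and 5 of 23 at 45 days, where 1 cell held 16 of the 27 UMIs.

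Between induction groups the gate-positive cells were compared by size, since each group was 1 library. Genes at 100 CPM or more in 1 of the 2 libraries, with 10 or more UMIs, were counted as apart at a 4-fold ratio after adding 5 CPM to each side. At 45 days against no induction 11 of 1793 genes (0.613%) were apart, 5 higher (0.279%) and 6 lower (0.335%). At 15 days against no induction 13 of 1707 (0.762%) were apart, 8 higher (0.469%) and 5 lower (0.293%), and at 45 days against 15 days 13 of 1866 (0.697%), 2 higher (0.107%) and 11 lower (0.589%). These comparisons share libraries, and the 45 day sums rest on 23 cells and 238922 UMIs, against 884242 UMIs at 15 days and 1328264 without induction.

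Fibroblast matrix RNA was the clearest difference of both induced libraries from the uninduced one. Of 7 mesenchymal genes past the floor 6 were at least 2-fold lower at 45 days and 6 at 15 days, beside 1.95% and 0.586% of all genes. COL3A1, a fibrillar collagen, was at 992 CPM without induction (1318 UMIs in 123 of 150 cells), 306 CPM at 15 days and 280 CPM at 45 days. DCN, a collagen-binding proteoglycan, was at 136, 7.92 and 8.37 CPM, and LUM at 211, 30.5 and 8.37 CPM, in the same order. COL1A2 was 8.50-fold lower at 45 days than without induction (counting interval 4.83 to 16.5) and 5.72-fold lower at 15 days (4.43 to 7.50). COL1A2 was also highest without induction in the other 2 classes, at 431, 86.2 and 122 CPM in tip-like cells and 928, 133 and 223 CPM in other endothelial cells of the uninduced, 15 day and 45 day libraries. Cells with 3 or more mesenchymal genes were 79 of 150, 14 of 74 and 7 of 23 gate-positive cells, and the part of such RNA from neighbouring cells was not tested.

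Some venous and flow genes were lower in gate-positive cells at 45 days. Of 5 venous genes past the floor 2 were at least 2-fold lower than without induction, and so were 2 of 5 flow genes, beside 1.95% of all genes, while the venous gene NRP2 was at 490 CPM at 45 days against 441 CPM. NR2F2 was 2.54-fold lower at 45 days than without induction and stood 1.11-fold lower at 15 days, where its interval reached 1 (0.802 to 1.01 as the ratio of 15 days to no induction). TEK was at 58.6 CPM at 45 days, against 216 CPM without induction (3.69-fold lower, 2.16 to 6.83, with a log2 ratio of -1.80 that became -3.08 with doublets left out), and KLF2 at 138 against 446 CPM. At 15 days TEK was at 230 CPM and KLF2 at 569 CPM. The larger part of cells with LYVE1 as the only gate gene at 45 days moves with the NR2F2 level, and NR2F2 in the remaining gate-positive cells was also lower, at 321 CPM at 45 days against 678 CPM without induction. Of 10 sprouting genes past the floor 3 were at least 2-fold higher at 45 days, beside 3.79% of all genes: UNC5B at 410 against 151 CPM, ANGPT2 at 105 against 36.9 CPM and PGF at 163 against 38.4 CPM. PGF at 45 days stood at 307 CPM in tip-like cells.

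HLA-B and HLA-C, class I genes that present peptides to T cells, were higher in both induced libraries. HLA-B was at 244 CPM in uninduced organoids, 524 CPM at 15 days and 749 CPM at 45 days, 3.07-fold higher at 45 days (2.54 to 3.70) and 2.15-fold higher at 15 days (1.86 to 2.48) than without induction. HLA-C was at 203, 474 and 578 CPM in the same order. HLA-B and HLA-C were the 2 of 6 class I and interferon genes past the floor that were at least 2-fold higher, at 45 days (3.79% of all genes) and at 15 days (1.58%). HLA-B had the same order of libraries in tip-like cells, at 466, 649 and 755 CPM in the uninduced, 15 day and 45 day libraries.

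Of 8 cell cycle genes past the floor 5 were at least 2-fold higher at 45 days than without induction after the added 5 CPM, beside 3.79% of all genes. MKI67, a marker of dividing cells, was at 32.4 CPM in uninduced organoids, 81.4 CPM at 15 days and 134 CPM at 45 days. At 45 days 3 of 23 cells held its 32 UMIs, and 41 of 61 TYMS UMIs came from 1 cell, and with doublets left out the TYMS log2 ratio was 0.85 in place of 1.77. The thinned cycling shares above overlapped widely between these libraries.

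**Figure D5:**
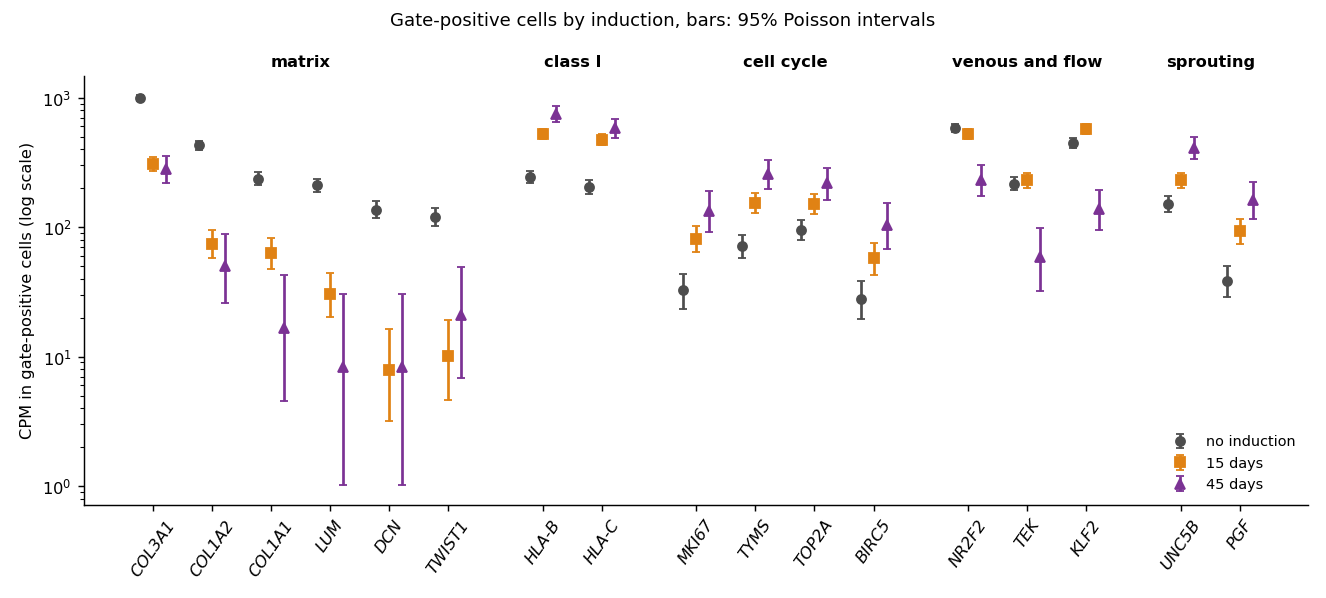
CPM of named genes in gate-positive cells (log axis, bars 95% Poisson intervals) in the uninduced, 15 day and 45 day libraries. The 6 genes drawn under matrix, which include the transcription factor gene TWIST1, are highest without induction. HLA-B and HLA-C are lowest there, while NR2F2, TEK and KLF2 are lowest at 45 days.

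Several of the widest differences came from 1 or a few cells. At 15 days NEFL, a neurofilament, was at 122 CPM against 1.51 CPM in uninduced organoids, and 83 of its 108 UMIs were in 1 cell. The creatine kinase CKB was at 292 against 24.1 CPM, with 91 of 258 UMIs in 1 cell, and APOA2, a liver apolipoprotein, at 119 against 8.28 CPM, with 45 of 105 UMIs in 1 cell. At 45 days against 15 days APOA2 had 0 UMIs, which puts it at least 9.46-fold lower with 3 UMIs taken as the floor of the library. DEPP1, a FOXO target, was spread more evenly, at 60.2 CPM in uninduced organoids, 286 CPM at 15 days in 33 cells and 280 CPM at 45 days in 13 cells. AQP1, a water channel, was at 102 CPM at 15 days in 21 cells, against 21.1 CPM without induction (4.83-fold, 3.13 to 7.67). UNC5B-AS1 was at 138 CPM at 45 days against 2.26 CPM without induction (3 UMIs, 61.2-fold, 19.2 to 312), and lies antisense to UNC5B. Whether the counting used strand is not given in the sources used here, so reads of the pair may be mixed.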

How the data were processed

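UMI counts per gene and barcode were deposited by the authors for 3 libraries, made with Cell Ranger 3.0.0 on GRCh38 per the submitters' processing notes; the matrix header gives software version 3.0.1. The gene annotation and whether strand was used in counting are not given in the sources used here. The libraries held 59879923, 49488425 and 64171327 UMIs in 10232, 5962 and 10765 barcodes in the uninduced, 15 day and 45 day libraries. Of the 33538 gene IDs 33456 were found in GENCODE 29, which gave the coordinates. Cells and classes followed the thresholds stated with the results, and no cell was removed as a doublet. As an alternative, simulated-neighbour doublet scores (50 neighbours, 30 components, 2000 genes) marked 0.8% of cells per 1000 barcodes, which included 21, 8 and 5 gate-positive cells of the uninduced, 15 day and 45 day libraries.

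Counts were summed per library and class, giving 9 sums. edgeR 4.0.16 (R 4.3.3) fitted them with TMM scaling, its default filter on low counts, class and library terms and the quasi-likelihood test, with Benjamini-Hochberg adjustment over all genes tested. The fit had 4 residual degrees of freedom. Each library gave all 3 classes from the same pool of organoids, so library was kept as a block. The fit recovered known changes in counts simulated from 1 pooled profile with 1 common spread. Those counts held no differences of profile between libraries and no RNA of neighbouring cells, so they do not vouch for the calls here. The 13 rule genes were left out of the calls, and a class difference that moved with them is no independent evidence of cell type. CPM are UMIs per 1000000 of the summed UMIs. Induction groups were 1 library each, so they have no test, and their intervals (exact Clopper-Pearson, Poisson or conditional binomial at 95%) cover counting error only. Thinning drew a fixed number of UMIs from each cell, and shallower cells were left out.

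Genes were named by rule: the 15 most raised and 10 most reduced called genes at 50 CPM or more in 1 of the 2 classes with the same direction in 3 of 3 libraries, the 10 most raised and 10 most reduced genes of each induction comparison, and the listed genes; splits by gate gene, and single genes outside the rule, were chosen after values were seen. The members and lists were chosen with earlier results of these data known. Promoter letters came from RefSeq. Python 3.11.15, numpy 2.4.6, pandas 2.3.3, scipy 1.17.1, scikit-learn 1.9.0 and matplotlib 3.10.9 were used, and DESeq2 1.42.0 was an alternative. Other alternatives changed the gate, depth, doublets, scaling, filter, library set, block and added CPM. A gene withheld from the text is not reported here.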

Additional observations from a re-analysis of the deposited data

Results flagged for a closer look

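A pair of gate genes gave more RNA outside the endothelium at 15 days than without induction, in cells that no comparison used. In cells with none of the 7 endothelial genes NTS was at 2.70 CPM in the uninduced library (112 UMIs, Poisson interval 2.23 to 3.25), 20.0 CPM at 15 days (737 UMIs, 18.6 to 21.5) and 2.71 CPM at 45 days (148 UMIs, 2.29 to 3.18). APLNR in the same cells was at 1.13 CPM (0.833 to 1.51) in the uninduced library, 2.69 CPM at 15 days (99 UMIs, 2.19 to 3.28) and 1.28 CPM at 45 days (0.998 to 1.62). LYVE1 and MADCAM1 in these cells were at 1.47 and 5.06 CPM at 15 days, against 1.13 and 5.82 CPM in the uninduced library. The NTS level within gate-positive cells at 15 days was 577 CPM, and the part of outside RNA in it was not tested.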

How the results depend on the processing

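No named gene changed direction under any alternative checked for it. The class comparisons of BTNL9, RGCC, TOP2A, TYMS, ENO1, SLC2A3, SMAD6, HLA-C and SOX18 were not among those checked. Among all called genes still tested after thinning to 3000 UMIs, 346 of 353 kept their direction against other endothelial cells and 947 of 960 against tip-like cells. Of 60 named values between induction groups, 17 moved beyond their counting interval with doublets left out and 5 with the mean over cells, among them COL3A1 at 45 days against no induction (log2 ratio -1.80, then -1.05 and -1.13) and NEFL at 15 days against no induction (4.29, then 2.64 without doublets). The gate-positive share of the endothelium stayed lowest at 45 days under each of the following settings. Without induction it was 35.6% with 1 or more gate UMIs, 23.3% with 3 or more, 22.6% with APLNR and 21.3% with LYVE1 left out of the gate, 18.0% thinned to 2000 UMIs, 22.9% thinned to 3000 UMIs and 36.2% with ESM1 and APLN not excluded. At 15 days it was 13.0% with LYVE1 left out, 13.8% thinned to 2000 UMIs and 33.5% with ESM1 and APLN not excluded. At 45 days it was 16.2% with 1 or more gate UMIs, 4.45% with LYVE1 left out, 4.52% thinned to 2000 UMIs and 22.7% with ESM1 and APLN not excluded.

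Against other endothelial cells, where 474 genes were called, DESeq2 called 224, the test without a filter on low counts 724, gates after thinning to 3000 UMIs 222, the fit without cells holding 3 markers of another class 187 and the fit without cells with LYVE1 as their only gate gene 732, the last setting chosen after seeing the data. Against tip-like cells, where 1294 were called, DESeq2 called 583, gates after thinning 466 and the fit without cells holding 3 markers of another class 437. With no replicate block the counts were 136 against other endothelial cells and 663 against tip-like cells, all of them among the genes called with the block. Leaving out 1 library gave 298 to 459 genes against other endothelial cells and 713 to 1121 against tip-like cells. The lowest counts came without the uninduced library, where 207 and 648 of the genes called with it remained. The cause was not tested, beyond the fewer cells or genes that thinning and leaving out leave.

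No paired analysis was possible for the induction comparisons because each group was 1 library. Of genes 4-fold apart at 45 days against no induction (11), 5 were left with 20 CPM added, 113 were counted with no floor on CPM and 17 with doublets left out. At 15 days against no induction (13) there were 51 with no floor, and at 45 days against 15 days (13) there were 6 with 20 CPM added and 134 with no floor. The 45 day values rest on 23 cells, and 1 cell can set a gene there.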

Other observations

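General endothelial genes outside the gate moved less than the arterial ones. Of 20 pan-endothelial genes 3 were higher and 3 lower than in other endothelial cells (median log2 fold change 0.15), and 4 were higher and 8 lower than in tip-like cells (-0.27). SOX18, a transcription factor of early vessels and lymphatic specification, was at 404, 421 and 636 CPM in gate-positive cells of the uninduced, 15 day and 45 day libraries, against 682, 815 and 739 CPM in tip-like cells (log2 fold change -0.61 ± 0.14, edgeR adjusted p = 0.00458), and did not pass the test against other endothelial cells (adjusted p = 0.859). IGFBP7, a secreted vascular protein, was at 626, 898 and 326 CPM in gate-positive cells, against 176, 120 and 189 CPM in other endothelial cells (1.90 ± 0.20, adjusted p = 4.01e-06). CD320, the receptor for vitamin B12 bound to transcobalamin, was at 346, 257 and 184 CPM, against 91.6, 62.1 and 63.8 CPM in other endothelial cells (1.87 ± 0.14, adjusted p = 6.90e-08). Both genes were without overlap between these classes.

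Glycolysis, BMP and class I genes gave few calls between the classes. Of 14 hypoxia and glycolysis genes tested 1, the glycolytic enzyme ENO1, was higher than in other endothelial cells, at 855, 1061 and 1285 CPM in gate-positive cells of the uninduced, 15 day and 45 day libraries, against 651, 795 and 933 CPM (adjusted p = 0.00563). ENO1 was also higher than in tip-like cells, at 721, 858 and 1152 CPM there (adjusted p = 0.0170), and the glucose transporter SLC2A3 was lower (adjusted p = 0.0346). Of 10 BMP and TGF-beta pathway genes tested the co-receptor gene ENG had the lowest adjusted p against other endothelial cells (edgeR adjusted p = 0.0647), above the threshold, and the inhibitor SMAD6 and ENG were lower than in tip-like cells (log2 fold changes -1.03 and -0.44). The ENG call against tip-like cells was lost under 4 alternatives. HLA-C was the 1 of 12 class I and interferon genes that passed, lower in gate-positive cells than in other endothelial cells (-0.51 ± 0.13, adjusted p = 0.0322) and than in tip-like cells (-0.47 ± 0.13, adjusted p = 0.0194).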
